A study of Mus musculus with 18 samples.

Results

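The mRNAs of the translation initiation factors were followed through HS and tunicamycin in mouse fibroblasts. The set held every gene whose name starts with Eif1 to Eif6, without the eIF2 kinases, whose names start with Eif2ak, and it came to 53 of the 20207 genes listed. All 18 libraries came from NIH3T3 cells, an established line of mouse fibroblasts, which in this study stably carried a fluorescent protein fused to a destabilizing domain (DD) together with its stabilizing ligand. There were 6 groups of 3 libraries: unstressed control cells at 0 min, cells under heat shock (HS) for 45 or 135 min, and cells given tunicamycin (Tu), which blocks N-linked glycosylation and so unfolds proteins in the ER, for 45, 135 or 405 min. HS was not sampled at 405 min. The cells were 1 line, the DD fusion and ligand were shared by all groups, and the labels number the replicates without saying whether they were separate cultures, so p-values measure only the spread between these samples.

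Each library held 33415592 to 66478268 reads on genes, and 3 reads corresponded to 0.0451 to 0.0898 CPM, that is, counts scaled to library size. All 7 fibroblast markers checked were detected, with Col1a1, a collagen chain, at a mean of 8517 CPM in control cells, and 5 of the 7 were repressed after 405 min of tunicamycin. Of 8 markers of other cell types only 3 had reads in every library. Cd68, a macrophage and lysosome gene, was at 5.47 to 8.75 CPM. Some libraries stood apart within their group. Replicate 3 of HS 45 min lay at -67 on the main axis of spread between replicates, against 25.1 and 41.8 for the other two, and replicates 1 and 2 of HS 135 min lay at -49.2 and 60.6. That axis held 74% of the spread within groups, and genes weighed on it by transcript GC content (Spearman's rho of the weights with GC 0.695, across genes that share these libraries).

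Initiation begins when eIF2 carries the initiator tRNA to the small ribosomal subunit, with eIF1, eIF1A, eIF3 and eIF5 helping to find the start codon. The eIF4F complex (the cap-binding eIF4E, the scaffold eIF4G and the helicase eIF4A) brings in the mRNA, and the 4E-BPs, encoded by Eif4ebp1 to Eif4ebp3, hold eIF4E away from eIF4G. In stress, kinases phosphorylate eIF2, which then blocks its own exchange factor eIF2B, so most of what is known of this control acts on proteins already made rather than on mRNA. Not every gene with such a name is an initiation factor: Eif2c1 to Eif2c4 are older names of the Argonautes, which bind small RNAs, and eIF5A acts mainly in elongation.

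In control cells the levels ranged widely. On the RPKM scale, reads scaled to transcript length and library size, which allows genes to be compared, Eif5a stood highest at 1000 ± 43.3 (SD, n = 3 here and below), followed by Eif4a1, the main eIF4A helicase, at 551 ± 56.4. Eif3i at 359 ± 61.7 and Eif3h at 348 ± 6.22 came next and did not differ beyond their spread. Eif4g1 stood at 213 ± 15.9 RPKM, Eif4g2, an eIF4G relative that lacks the eIF4E-binding site, at 105 ± 40.5, and Eif4e at only 27.7 ± 7.65. Eif4ebp1 lay far above its binding partner Eif4e, at 287 ± 54.8 RPKM, with Eif4ebp2 at 116 ± 54.5 and Eif4ebp3 at 5.71 ± 1.19. The subunits of eIF2 did not match in level: Eif2s2 (beta) at 72.6 ± 28.1 and Eif2s3x (gamma) at 73.7 ± 4.85 RPKM overlapped each other, and Eif2s1 (alpha) lay lower at 27.2 ± 13.2. The 5 eIF2B subunits were between 19.1 ± 5.68 (Eif2b3) and 50.8 ± 15.6 (Eif2b2) RPKM. The 13 eIF3 subunits ran from 12.2 ± 4.09 (Eif3j, a loosely bound subunit) to the level of Eif3i. Eif4e1b, with 0 to 8 reads per library, and Eif4e3, with 0 to 3, were too low to test, which left 51 members.

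The regions just upstream of the start site are shown for the 4 induced and 5 repressed members that changed most after 405 min of tunicamycin among those with an entry, so that promoters of mRNAs moving in opposite directions can be read side by side. RefSeq held an entry for 41 of the 53 members, 5 of them under a newer symbol. Each sequence is the 150 bases before the start on GRCm38.p6, 5′ to 3′ on the strand of the gene. Capitals mark the letters CACGTG (the E-box) and CCAAT (the CCAAT box), in either orientation. Eif2c1 and Eif4e have 2 starts each in the table. Those of Eif2c1 overlap and 1 is shown, and both are shown for Eif4e, where the letters differ.
Eif1, chr11:100319799-100319948, plus strand: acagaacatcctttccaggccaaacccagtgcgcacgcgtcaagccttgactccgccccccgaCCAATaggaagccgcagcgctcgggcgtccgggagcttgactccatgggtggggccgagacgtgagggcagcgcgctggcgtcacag
Eif2s2, chr2:154892907-154893056, minus strand: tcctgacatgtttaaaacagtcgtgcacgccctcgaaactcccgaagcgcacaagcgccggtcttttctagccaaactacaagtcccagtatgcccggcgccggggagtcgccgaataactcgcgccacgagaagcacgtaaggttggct
Eif3j (RefSeq symbol Eif3j1), chr2:122028430-122028579, plus strand: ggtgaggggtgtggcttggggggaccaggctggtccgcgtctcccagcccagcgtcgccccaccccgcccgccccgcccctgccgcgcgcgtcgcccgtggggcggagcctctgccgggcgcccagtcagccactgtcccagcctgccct
Eif3g, chr9:20898591-20898740, minus strand: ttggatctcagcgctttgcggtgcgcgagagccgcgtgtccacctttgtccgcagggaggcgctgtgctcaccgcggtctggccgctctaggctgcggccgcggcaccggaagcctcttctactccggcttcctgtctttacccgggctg
Eif2c1 (RefSeq symbol Ago1), chr4:126468632-126468781, minus strand: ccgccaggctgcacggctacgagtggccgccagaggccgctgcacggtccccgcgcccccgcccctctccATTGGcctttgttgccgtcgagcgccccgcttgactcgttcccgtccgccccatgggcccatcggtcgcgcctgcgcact
Eif4ebp2, chr10:61452670-61452819, minus strand: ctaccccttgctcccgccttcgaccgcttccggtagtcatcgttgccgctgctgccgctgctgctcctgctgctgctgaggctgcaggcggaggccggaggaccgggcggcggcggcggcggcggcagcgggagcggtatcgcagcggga
Eif5a2, chr3:28781127-28781276, plus strand: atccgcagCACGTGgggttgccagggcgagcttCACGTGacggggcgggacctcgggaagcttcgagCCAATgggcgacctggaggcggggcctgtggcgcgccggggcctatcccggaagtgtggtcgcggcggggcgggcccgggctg
Eif4e, upstream start, chr3:138526041-138526190, plus strand: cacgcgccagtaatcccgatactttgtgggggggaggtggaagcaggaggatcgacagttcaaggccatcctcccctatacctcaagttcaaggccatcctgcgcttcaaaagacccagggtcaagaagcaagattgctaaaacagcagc
Eif4e, downstream start, chr3:138527118-138527267, plus strand: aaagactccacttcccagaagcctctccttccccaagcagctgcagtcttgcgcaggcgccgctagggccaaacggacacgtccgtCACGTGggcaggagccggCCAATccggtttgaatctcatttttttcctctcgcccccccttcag
Eif4g1, chr16:20672577-20672726, plus strand: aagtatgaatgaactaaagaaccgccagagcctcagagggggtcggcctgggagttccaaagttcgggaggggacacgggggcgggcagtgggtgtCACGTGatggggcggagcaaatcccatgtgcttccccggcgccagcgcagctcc

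The E-box CACGTG was found in 8 of the 54 promoters listed for members, those of Eif1b, Eif3f, Eif3k, Eif4e, Eif4g1, Eif4h, Eif5a and Eif5a2, and in 4.3% of all 32851 promoters in the same 150 bases. CCAAT was found in 12 of the 54 promoters and in 24.5% of all. Of the members called after 405 min of tunicamycin, the E-box letters lay upstream of Eif4e, Eif4g1 and Eif5a2, all repressed, and upstream of none of the induced members that had an entry. In Eif4e only the downstream start had them. Eif2c1, Eif4ebp2, Eif4a2, Eif2s3x and Eif3l were repressed without the letters. Eif2b5, the remaining repressed member, was not among the members found with the letters. Eif1b, Eif3f, Eif3k, Eif4h and Eif5a had the letters and no call against control at that time. A link with repression was not tested. The composite element TGATGNAA, known as a site for ATF4 with C/EBP, was found in 1 member promoter, that of Eif2s3x, and in 2.23% of all. The heat shock element (TTC, any 2 bases, GAA, any 2 bases, TTC) and the ER stress response element (CCAAT, any 9 bases, CCACG, so that it holds a CCAAT box) were found in 0 of the 54, against 0.268% and 0.0822% of all promoters. Both strands were searched for every motif, and a match of letters is not a site.

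The changes after late tunicamycin ran in both directions. After 405 min, 10 of the 51 members were induced and 9 repressed (edgeR's quasi-likelihood test, adjusted p under 0.05). Over all 12731 genes tested, 23.3% were induced and 23.5% repressed, so the members' shares were close to or below the background. The median log2 fold change of the members was 0.01, against -0.01 over all genes. Replicate 1 of the control lay at 18.9 on the axis above, against -9.49 and -9.37 for its partners, and without it 16 members were induced and 16 repressed, where 31.6% and 30.5% of all genes were. The count against control was the highest of the 5 stress groups when each was fitted with control alone. With the spread estimated over all 6 groups that order turned: 7 members were induced and 5 repressed at 405 min of tunicamycin, where 15.8% and 16.1% of all genes were, and 3 induced and 16 repressed at 135 min of HS, where 14.4% and 11.1% of all genes were. In bulk RNA, fewer cells of a kind and less RNA per cell cannot be told apart.

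The strongest rise and one of the strongest falls were in the 4E-BPs, which keep eIF4F from assembling. Eif4ebp1 mRNA stood at 417, 277 and 298 CPM in control cells and at 875, 1038 and 1104 CPM after 405 min of tunicamycin. Every late library lay above every control library, a log2 fold change of 1.62 (SE 0.195, adjusted p = 0.000395, edgeR). In the earlier groups it lay at 355, 384 and 460 CPM (Tu 45 min), 440, 260 and 251 CPM (Tu 135 min), 508, 629 and 272 CPM (HS 45 min) and 350, 547 and 538 CPM (HS 135 min), all overlapping control. Eif4ebp2, which encodes the second 4E-BP, moved the other way, from 390, 187 and 161 CPM in control to 94.5, 78.5 and 89.3 CPM (log2 fold change -1.47, SE 0.317, adjusted p = 0.00611, edgeR). Control replicate 1 was far above the other two here, and the late libraries lay below all 3. Eif4ebp3 was low throughout, at 5.28 CPM in control replicate 2, and passed the test in no comparison.

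The list kept for eIF4F was drawn up by name, and so includes relatives such as Eif4e2 and Eif4g2. Of its 7 tested mRNAs 3 were repressed and 1 was induced after 405 min, where 23.5% and 23.3% of all genes were. Eif4e was at 66.4, 109 and 104 CPM in control cells and at 48.8, 44.3 and 48.3 CPM in the late libraries, all below control (log2 fold change -0.96, SE 0.186, adjusted p = 0.00392, edgeR). Eif4g1 fell from 1328, 1443 and 1267 CPM to 740, 723 and 725 CPM (log2 fold change -0.86, SE 0.125, adjusted p = 0.000959, edgeR). These 2 mRNAs encode the cap-binding protein and the main scaffold that it docks onto. Eif4a2, the second eIF4A helicase gene, fell from 80, 114 and 126 CPM to 67.7, 60.1 and 54.0 CPM (log2 fold change -0.79, SE 0.179, adjusted p = 0.00763, edgeR). The listed coordinates of Eif4a2 overlap those of Rfc4, and reads of the 2 genes may be shared. Eif4a1 was lower in each late library than in each control library, at 1020, 847 and 906 against 1116, 1254 and 1264 CPM, but missed the threshold (log2 fold change -0.37, SE 0.13, adjusted p = 0.0524, edgeR). Eif4g2 showed no such shift, with a log2 fold change of 0.01 (SE 0.26, adjusted p = 0.979). Eif4g3, another eIF4G gene, gave 0.36 (SE 0.109, adjusted p = 0.0261), a call held in 1 of 6 fits that left out a library. When the spread was estimated over all 6 groups, Eif4e (adjusted p = 0.421) and Eif4a2 (adjusted p = 0.346) no longer passed, while Eif4g1 did (adjusted p = 0.00073). Eif4a3, Eif4b, Eif4enif1 and Eif4h, which were put in a separate list, had no call.

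**Figure D1:**
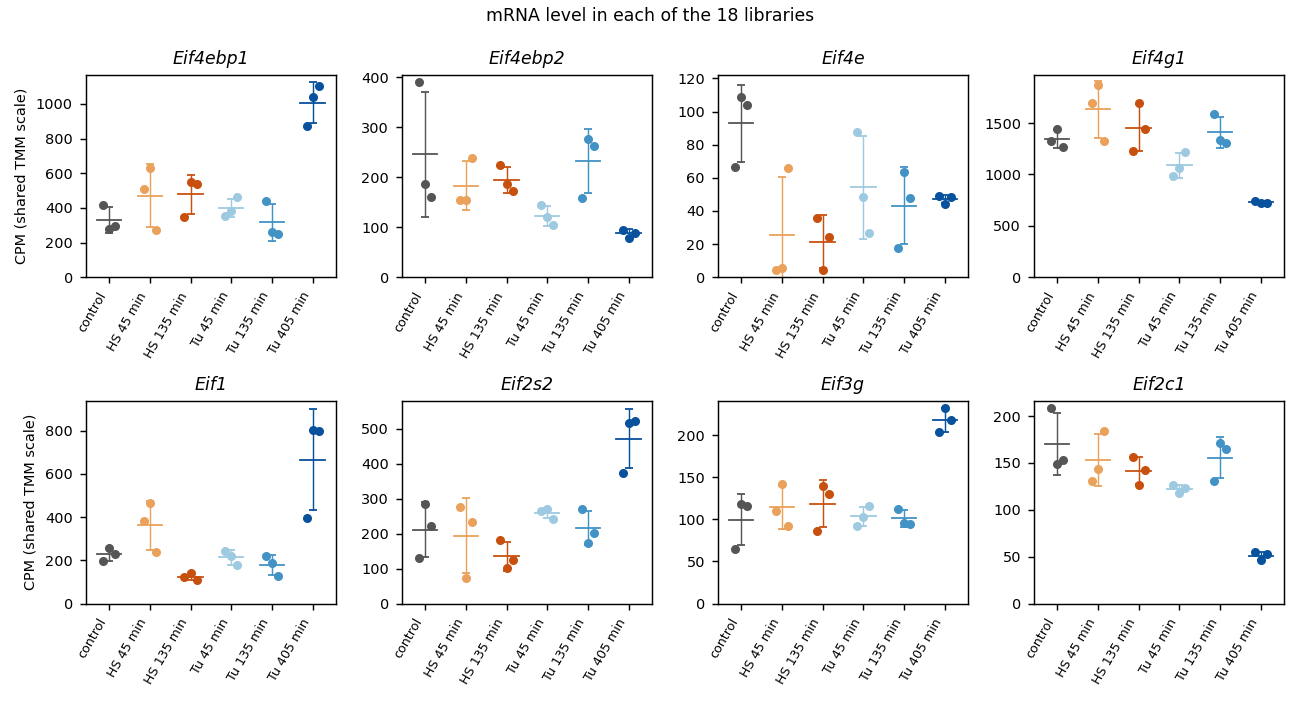
mRNA level in CPM (vertical axis, starting at 0) in each of the 18 libraries for 8 members. Points are libraries, in replicate order from left to right within a group. Horizontal lines are group means and bars are SD (n = 3). The late tunicamycin libraries stand above all control libraries for Eif4ebp1, Eif1, Eif2s2 and Eif3g and below them for Eif4ebp2, Eif4e, Eif4g1 and Eif2c1.

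In the eIF1 and eIF1A group, 3 of 5 members were induced after 405 min and none was repressed, where 23.3% and 23.5% of all genes were. Eif1, which guards the choice of start codon, was at 195, 256 and 231 CPM in control cells and at 395, 803 and 798 CPM after 405 min (log2 fold change 1.57, SE 0.271, adjusted p = 0.00219, edgeR). Replicate 1 of the late group was well below the other two and still above every control library. Eif1a, a gene for eIF1A, went from 55.7, 80.6 and 74.8 CPM to 137, 111 and 104 CPM (log2 fold change 0.76, SE 0.17, adjusted p = 0.00725, edgeR). Eif1ad, related in sequence to eIF1A, gave 0.41 (SE 0.109, adjusted p = 0.0148), a call held in 3 of 6 fits that left out a library. Eif1b, a close copy of Eif1 in sequence, was at 16.2, 33.2 and 30.8 CPM in control and 32.2, 46.9 and 44.0 CPM in the late group, which overlapped. Eif1ay was not called either, with a log2 fold change of -0.52. Because near-identical copies can share reads, the split between Eif1 and Eif1b and between Eif1a and Eif1ay is uncertain.

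The 3 kinds of eIF2 subunit did not move together. Eif2s2, the beta subunit, was induced from 130, 284 and 222 CPM to 375, 518 and 524 CPM (log2 fold change 1.18, SE 0.274, adjusted p = 0.00864, edgeR). Eif2s3x, the gamma subunit, was repressed from 304, 328 and 297 CPM to 215, 170 and 173 CPM (log2 fold change -0.71, SE 0.134, adjusted p = 0.00326, edgeR). Eif2s1, the alpha subunit and the target of the stress kinases, was at 46.9, 135 and 116 CPM in control and at 149, 186 and 172 CPM late, all above control, without passing the test (log2 fold change 0.79, SE 0.33, adjusted p = 0.0825, edgeR). Eif2s3y, the Y-linked copy of the gamma subunit gene, stayed under 9 CPM in every library. Of the eIF2B subunits only Eif2b5, the catalytic one, was called, at a log2 fold change of -0.44 (SE 0.127, adjusted p = 0.021), and that call held in 2 of 6 fits that left out a library.

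Of the 13 eIF3 subunits 3 were induced and 1 was repressed after 405 min, where 23.3% and 23.5% of all genes were. Eif3g, an RNA-binding subunit, rose from 65.2, 119 and 115 CPM to 204, 233 and 219 CPM (log2 fold change 1.15, SE 0.218, adjusted p = 0.00338, edgeR). Eif3j rose from 21.6, 40.6 and 38.4 CPM to 68.0, 91.3 and 66.2 CPM (log2 fold change 1.19, SE 0.245, adjusted p = 0.00509, edgeR). The listed coordinates of Eif3j overlap those of Spg11. In both genes control replicate 1 was the lowest library. Eif3d, a subunit that can itself bind the cap, gave a log2 fold change of 0.60 (SE 0.124, adjusted p = 0.00528, edgeR). Eif3l gave -0.49 (SE 0.139, adjusted p = 0.0194), held in 2 of 6 fits that left out a library. The median over the 13 subunits was 0.33, and 7 of them lay wholly above control and 2 wholly below, where 29.2% and 29.5% of all genes did so.

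**Figure D2:**
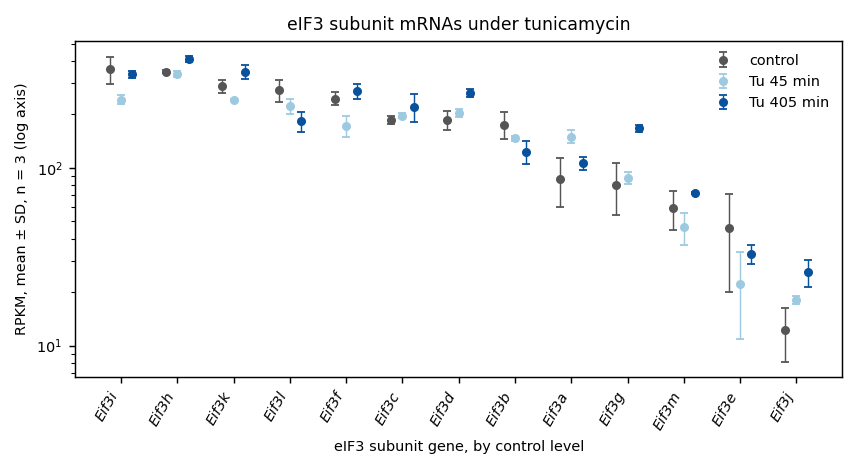
Levels of the 13 eIF3 subunit mRNAs in RPKM (log axis), ordered by their level in control cells. Points are group means and bars are SD (n = 3) for control, Tu 45 min and Tu 405 min. Eif3i and Eif3h lead and Eif3j is lowest in control, and Eif3g and Eif3j stand clear of their control level at 405 min.

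Among the remaining factors, Eif6, which keeps the large ribosomal subunit from joining too early, was induced from 199, 169 and 165 CPM to 282, 256 and 252 CPM (log2 fold change 0.59, SE 0.129, adjusted p = 0.00656, edgeR). Eif5a2, the second eIF5A gene, fell from an already low 6.5, 12.5 and 10.7 CPM to 3.61, 3.51 and 3.42 CPM (log2 fold change -1.47, SE 0.237, adjusted p = 0.00157, edgeR). Its abundant relative Eif5a was at 1512, 1498 and 1539 CPM in control and 1444, 1589 and 1544 CPM late. Eif5, which makes eIF2 hydrolyse its GTP, was at 158, 146 and 145 CPM and then at 129, 124 and 137 CPM, lower in each library but not past the threshold (log2 fold change -0.18, SE 0.11, adjusted p = 0.217, edgeR). The Argonaute gene Eif2c1 fell furthest of the members, from 208, 149 and 154 CPM to 54.5, 46.3 and 52.5 CPM (log2 fold change -1.72, SE 0.165, adjusted p = 0.00014, edgeR). The other 3 Argonaute genes had no call against control.

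In the mm9 coordinates of the deposited tables, the members that moved most at 405 min lie on several chromosomes. Eif4ebp1 spans chromosome 8 from 28370799 to 28386128, Eif1 chromosome 11 from 100181310 to 100183410, and Eif4g1 chromosome 16 from 20672822 to 20692956. Eif2c1 spans chromosome 4 from 126112259 to 126145665, between its relatives Eif2c3 (126017922 to 126106786) and Eif2c4 (126166789 to 126210702). Of these 3 Argonaute neighbours Eif2c1 was the one called against control. Eif2c3 was at 16.4, 13.7 and 11.5 CPM in control and 15.6, 12.9 and 14.2 CPM late, and Eif2c4 at 3.66, 3.37 and 2.77 CPM and then 2.96, 2.10 and 2.66 CPM.

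Of the 51 members tested, 21 were called in at least 1 of the 5 comparisons with control and 30 in none. The same count over all genes was not made. At 405 min of tunicamycin alone 10 members were induced and 9 repressed, where 23.3% and 23.5% of all genes were, so the count does not set the members apart. The abundant helper Eif4b, a cofactor of the eIF4A helicase, was at 960, 978 and 978 CPM in control. It lay below control at 405 min of tunicamycin (878, 860 and 812 CPM) and above control at HS 135 min (1206, 1384 and 1348 CPM). Neither change passed the test, but the fit of all 6 groups called Eif4b higher at HS 135 min (log2 fold change 0.43, adjusted p = 0.021, edgeR). Eif3a was lowest in control, at 357, 647 and 567 CPM, and lay at 746, 867 and 953 CPM at Tu 45 min and at 900, 825 and 887 CPM at HS 135 min, above control in both without passing the test. In some members without a call 1 control library stood apart. Eif3e, an eIF3 subunit, was at 33.8, 90.3 and 121 CPM in control, where replicate 1 was the lowest, and at 51.6, 68.6 and 66.7 CPM at 405 min. Eif2c2, the Argonaute with slicer activity, was at 168, 87.3 and 74.6 CPM in control, where replicate 1 was the highest, and at 70.1, 65.0 and 72.4 CPM at 405 min. Eif1ay, listed on chromosome X, was at 237, 94.8 and 119 CPM in control, again with replicate 1 highest, and at 96.9, 98.9 and 116 CPM at 405 min.

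The early tunicamycin libraries asked whether these changes were already under way. After 45 min, 0 members were induced and 1 was repressed, where 4.01% and 2.17% of all genes were. The count depended on the method: DESeq2 called 1 higher and 12 lower (7.79% and 6.98% of all genes), the fit with a GC offset 1 and 10 (8.22% and 7.19%), and the fit without control replicate 1 gave 2 and 12 (10.9% and 8.7%). The repressed member was Eif5a, which fell from 1512, 1498 and 1539 CPM to 947, 1003 and 1002 CPM (log2 fold change -0.61, SE 0.12, adjusted p = 0.0308, edgeR). All 3 libraries lay below control, yet the call held in only 1 of 6 fits that left out a library, the one without control replicate 1. At 405 min Eif5a overlapped control. After 135 min, 0 members passed in either direction (edgeR), where 0.126% of all genes were induced and 0.00785% repressed. At an unadjusted p under 0.05 (edgeR), 1 member was higher and 15 were lower at 135 min, where 1288 and 1081 of all 12731 genes were. DESeq2 called 0 higher and 4 lower at that time, where it called 2.71% and 2.73% of all genes. The median of the members was -0.27 at 45 min and -0.24 at 135 min, against 0.00 over all genes at both times. At 45 min 3 members lay wholly above control and 19 wholly below, where 17.2% and 16.0% of all genes did. Those below included Eif2c1, Eif4ebp2, Eif5a2, Eif4g1, Eif2s3x, Eif2b5 and Eif3l, all repressed at 405 min but not called at 45 min (edgeR). With the GC offset Eif5a2 (-0.83), Eif2s3x (-0.68) and Eif2b5 (-0.45) were called lower at 45 min. Eif4e and Eif4a2, also repressed at 405 min, overlapped control. Of the members induced at 405 min, Eif3j and Eif4g3 already lay wholly above control, and Eif6 lay wholly below. At 135 min 2 lay wholly above and 18 wholly below, where 13.7% and 13.6% of all genes did.

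The main eIF4A, eIF4E, eIF4G, eIF2 and eIF5 mRNAs were also read through every group. Eif4a1 was at 843, 802 and 599 CPM at Tu 45 min, at 755, 953 and 1069 CPM at Tu 135 min, at 463, 185 and 919 CPM at HS 45 min and at 728, 269 and 462 CPM at HS 135 min. All of these lay below the lowest control library, as at 405 min, and none of the 5 comparisons passed the test. Eif4a2 was at 121, 62.0 and 56.4 CPM at Tu 45 min, at 29.8, 51.3 and 54.1 CPM at Tu 135 min and at 23.3, 9.10 and 59.2 CPM at HS 45 min, and overlapped control at Tu 45 min. Eif4e was at 87.9, 48.4 and 26.5 CPM at Tu 45 min and at 17.8, 63.8 and 48.0 CPM at Tu 135 min, below control at the later time without passing.

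Eif4g1 was at 984, 1067 and 1221 CPM at Tu 45 min, all below control, without passing the test. It was at 1697, 1876 and 1327 CPM at HS 45 min and at 1588, 1331 and 1308 CPM at Tu 135 min. At HS 135 min it was at 1229, 1693 and 1447 CPM, and it overlapped control in these later-named groups. Eif4g2 varied within groups, at 561, 1225 and 1053 CPM in control, 1092, 1050 and 632 CPM at Tu 45 min, 837, 1143 and 1121 CPM at Tu 135 min, 957, 940 and 913 CPM at Tu 405 min, 719, 979 and 1209 CPM at HS 45 min and 1017, 670 and 968 CPM at HS 135 min. It overlapped control in all 5 comparisons. Eif2s1 was at 105, 119 and 78.3 CPM at Tu 45 min, 48.4, 76.0 and 83.7 CPM at Tu 135 min, 73.7, 70.8 and 99.3 CPM at HS 45 min and 93.0, 42.8 and 69.2 CPM at HS 135 min. Eif2s2 was at 265, 271 and 243 CPM at Tu 45 min, 271, 175 and 203 CPM at Tu 135 min, 277, 72.5 and 233 CPM at HS 45 min and 181, 101 and 125 CPM at HS 135 min. Both eIF2 mRNAs overlapped control in these 4 groups. Eif5 was at 157, 124 and 94.4 CPM at Tu 45 min, 50.8, 108 and 97.0 CPM at Tu 135 min, 47.2, 57.4 and 99.5 CPM at HS 45 min and 132, 23.6 and 87.1 CPM at HS 135 min, below control in all but the first of these and past the test in none.

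Late and early tunicamycin were then compared directly. Between 45 and 405 min 22 members rose and 7 fell, where 24.4% of all genes rose and 28.1% fell. This comparison shares its late libraries with the one against control. With the spread estimated over all 6 groups 13 members rose and 2 fell, where 13.0% and 13.9% of all genes did. The largest rises were in Eif1 (log2 fold change 1.59, SE 0.265, adjusted p = 0.00125, edgeR), which was at 242, 222 and 177 CPM at 45 min, and in Eif4ebp1 (1.29, SE 0.132, adjusted p = 9.57e-05). Eif3g rose by 1.04 (SE 0.106, adjusted p = 9.34e-05) from 92.1, 103 and 115 CPM, and Eif6 by 0.98 (SE 0.0946, adjusted p = 6.93e-05) from 122, 125 and 140 CPM. Eif1a rose by 0.88 (SE 0.234, adjusted p = 0.0123), and Eif2b3, an eIF2B subunit, by 0.83 (SE 0.235, adjusted p = 0.0161), from 33.5, 29.2 and 16.6 CPM to 47.2, 52.3 and 47.1 CPM. In all 6 the 3 late libraries lay above the 3 early ones.

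Of the 13 eIF3 subunits 8 rose between 45 and 405 min (Eif3d, Eif3f, Eif3g, Eif3h, Eif3i, Eif3j, Eif3k and Eif3m) and 1 fell. Over all genes 24.4% rose and 28.1% fell. The subunit that fell was Eif3a, the largest scaffold subunit, by 0.38 on the log2 scale (SE 0.118, adjusted p = 0.0235, edgeR). That call held in 2 of 6 fits that left out a library. The median over the complex was 0.58, against -0.06 over all genes. Eif3i, for example, was at 569, 382 and 447 CPM in control, at 273, 282 and 331 CPM at 45 min and at 462, 445 and 461 CPM at 405 min, below every control library early and within the control range late. Of the 5 eIF2B genes 3 rose (Eif2b1, Eif2b2 and Eif2b3), as did Eif2s1 (0.70, SE 0.168, adjusted p = 0.00794) and Eif2s2 (0.82, SE 0.145, adjusted p = 0.00175). Eif5a rose by 0.59 (SE 0.1, adjusted p = 0.00139).

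The falls between 45 and 405 min were led by Eif2c1, at 127, 118 and 123 CPM early (log2 fold change -1.31, SE 0.102, adjusted p = 2.55e-05, edgeR). Eif5a2 fell by 0.70 (SE 0.185, adjusted p = 0.0122), and Eif4g1, at 984, 1067 and 1221 CPM early, by 0.62 (SE 0.105, adjusted p = 0.00131). Eif2c4, another Argonaute gene and one of the scarcest members at 3.65, 3.89 and 3.83 CPM early, fell by 0.60 (SE 0.165, adjusted p = 0.0143). Eif4ebp2 fell by 0.54 (SE 0.144, adjusted p = 0.0129) and Eif5b, which joins the ribosomal subunits, by 0.52 (SE 0.0956, adjusted p = 0.00212). The listed coordinates of Eif5b overlap those of Rev1. Without replicate 2 of Tu 45 min 4 members in place of 7 were called lower, where 21.0% of all genes were. The fit of all 6 groups called 2 in place of 7, where 13.9% of all genes were, so most of these falls lost their call there. Eif4e did not pass in this comparison (log2 fold change -0.26, SE 0.36, adjusted p = 0.56), and its early libraries spread from 26.5 to 87.9 CPM.

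**Figure D3:**
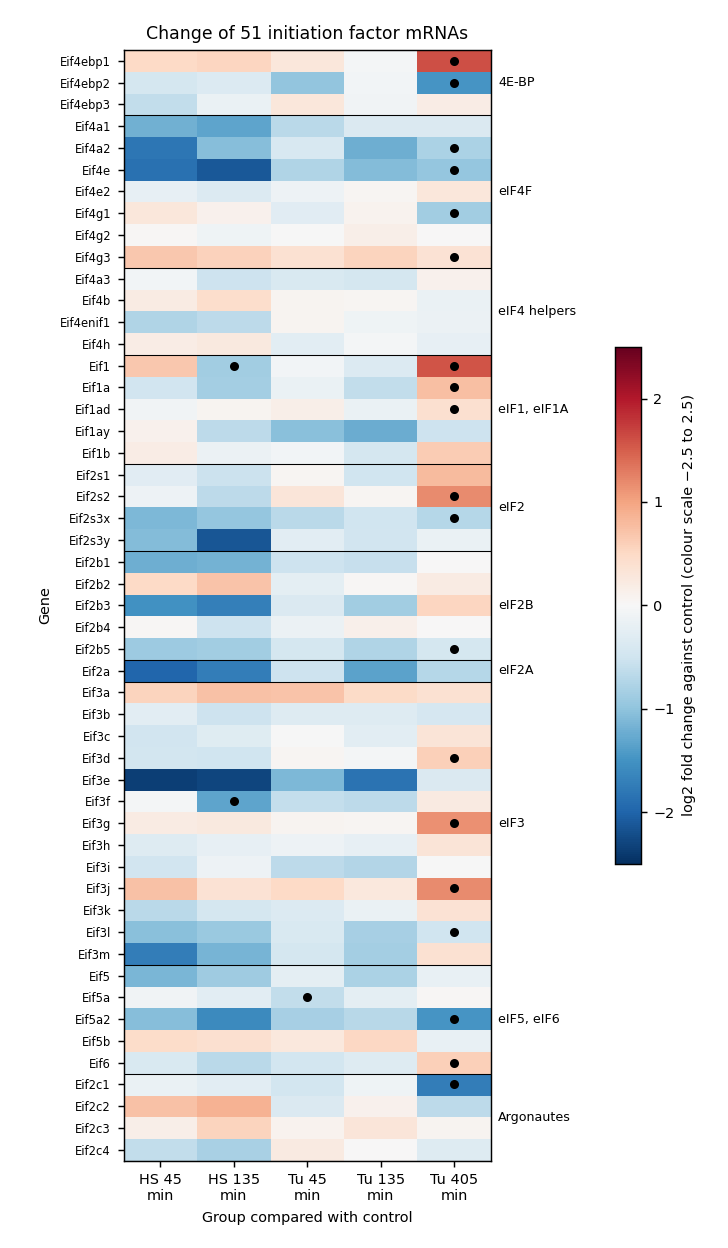
log2 fold change against control (colour, from -2.5 to 2.5) of the 51 members tested, in rows grouped by complex, for the 5 stress groups in columns. Black dots mark an adjusted p under 0.05 (edgeR). The dots gather in the Tu 405 min column, with 10 rises and 9 falls, and the HS columns are mostly blue with 2 dots.

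Under HS many member mRNAs read below control, but few passed the test. After 135 min of HS, 0 members were induced and 2 repressed, where 4.75% of all genes were induced and 2.64% repressed. Eif3f, an eIF3 subunit, fell from 483, 442 and 381 CPM to 237, 125 and 160 CPM (log2 fold change -1.32, SE 0.274, adjusted p = 0.0316, edgeR). Eif1 fell from its control level to 125, 142 and 107 CPM (log2 fold change -0.87, SE 0.207, adjusted p = 0.046, edgeR). For both genes the 3 HS libraries lay below the 3 control libraries. Neither call held in every fit that left out a library. That of Eif3f held in 2 of 6 fits that left out a library, and was lost without control replicate 1, 2 or 3 and without HS replicate 3, with adjusted p from 0.0765 to 0.166. That of Eif1 held in 3 of 6, and was lost without control replicate 2 or 3 and without HS replicate 3, with adjusted p from 0.19 to 0.217 (edgeR). Without control replicate 2, control replicate 3 and HS replicate 3, the genes called lower numbered 3, 1 and 0 among all 12731. Both Eif3f and Eif1 passed with DESeq2's Wald test, the GC offset and the fit of all 6 groups. Neither passed with replicate number added to the fit as a block, which called 0 genes lower. At 45 min of HS Eif1 had been at 383, 465 and 240 CPM, a log2 fold change of 0.67 (SE 0.28, adjusted p = 0.253) that did not pass.

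The median of the members was -0.51 at 135 min of HS, against -0.02 over all genes. Of the 51 members 22 lay wholly below control and 4 wholly above, where 19.1% and 18.1% of all genes did so. The 22 included 4 of 5 eIF2B genes, 6 of 13 eIF3 genes and 4 of the 5 in the eIF5 and eIF6 group. Several just missed the threshold: Eif2b1 at -1.18 (adjusted p = 0.0504), Eif2b5 at -0.86 (adjusted p = 0.0514), Eif4a1 at -1.32 (adjusted p = 0.0593) and Eif6 at -0.67 (adjusted p = 0.0602). Eif4a1 was at 728, 269 and 462 CPM, against 1116 CPM in the lowest control library.

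The spread between HS libraries was widest for members with low GC content. At HS 135 min Eif3m was at 66.9, 4.37 and 42.6 CPM, Eif4e at 35.5, 4.25 and 24.5 CPM and Eif4a2 at 85.7, 11.1 and 56.3 CPM, with replicate 2 lowest in each. Over the 18 members under 45% GC the median ratio of the highest to the lowest replicate was 2.65 at HS 135 min, against 1.53 over the other 33. The same ratios were 1.88 and 1.24 in control cells and 1.20 and 1.14 at Tu 405 min. The median log2 fold change at HS 135 min was -0.86 for the 18 and -0.34 for the 33, and -0.52 and -0.43 when an offset for GC content was added to the fit. With that offset 15 members were repressed and 1, Eif3a, was induced, where 9.37% and 11.3% of all genes were. The 15 held the 2 called without the offset, and also Eif3e (-1.85), Eif4e (-1.81), Eif4a1 (-1.25), Eif2b1 (-1.13), Eif6 (-0.97) and Eif2b5 (-0.91). Whether GC content, library preparation or RNA quality lay behind the spread was not tested.

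**Figure D4:**
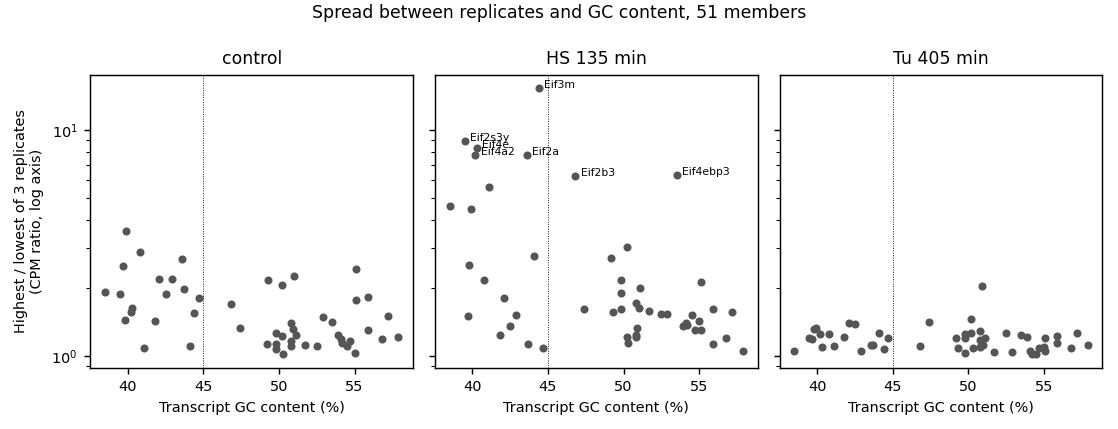
Ratio of the highest to the lowest of 3 replicates in CPM (log axis) against GC content of the transcript in percent, for 51 members (points) in control, HS 135 min and Tu 405 min. The dotted line marks 45% GC, and genes over a ratio of 6 are named. Eif3m, at 15.3, is the widest in HS 135 min, while no member exceeds 2.03 at Tu 405 min.

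After 45 min of HS 0 members passed in either direction, as did 0 of all genes (0.0%, edgeR). At an unadjusted p under 0.05 (edgeR), 2 members were higher and 10 lower, where 1568 and 912 of all 12731 genes were. DESeq2 called 0 higher and 1 lower, where it called 3.18% and 0.536% of all genes. This result rested on 1 library. For Eif3m the 3 replicates were at 8.76, 5.16 and 63.2 CPM, against 64.8, 90.3 and 99.9 CPM in control, and for Eif4e at 4.43, 5.75 and 65.9 CPM. Replicate 3 was in each the library nearest to control. Without it 20 members were repressed and 5 induced, where 23.9% of all genes were repressed and 21.5% induced. The repressed members then included Eif4e (-4.19, adjusted p = 0.000457), Eif3m (-3.61, adjusted p = 0.000815), Eif2b3 (-2.46, adjusted p = 0.00154) and Eif4a1 (-1.90, adjusted p = 0.00751, edgeR). The 5 induced were Eif1, Eif2c2, Eif3j, Eif4ebp1 and Eif4g3, with log2 fold changes from 0.78 to 0.98. Both remaining libraries lay on the same side of the GC axis, at 25.1 and 41.8.

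HS and tunicamycin were compared at matched times. At 45 min 0 members differed in either direction (edgeR), where 0.0628% of all genes were higher and 0.141% lower in HS. At an unadjusted p under 0.05 (edgeR) 8 were higher in HS and 2 lower, where 1833 and 1228 of all 12731 genes were. DESeq2 called 3 higher and 0 lower, where it called 6.01% and 3.05% of all genes. Without HS 45 min replicate 3, edgeR called 11 members higher and 19 lower, where it called 26.8% and 28.8% of all genes. Eif4g1 was at 1697, 1876 and 1327 CPM in HS, all above the tunicamycin libraries of that time, with a log2 difference of 0.58 (SE 0.2, adjusted p = 0.171). At 135 min 0 members differed either (edgeR), where 1.3% and 0.817% of all genes did. At an unadjusted p under 0.05 (edgeR) 2 were higher and 8 lower, where 1302 and 1241 of all 12731 genes were. DESeq2 called 0 members in either direction at 135 min, where it called 5.62% and 4.25% of all genes. The lowest adjusted p at that time belonged to Eif2b4, an eIF2B subunit, at -0.66 (adjusted p = 0.148). Eif1 was at 220, 186 and 127 CPM in tunicamycin and 125, 142 and 107 CPM in HS at 135 min, which overlapped. A p that misses the threshold does not show that the 2 stresses act alike on these mRNAs.

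Genes that act on initiation without being members were read from lists of their own. All 4 eIF2 kinase genes passed the test at 405 min of tunicamycin, 1 induced and 3 repressed, where 23.3% and 23.5% of all genes were. Eif2ak3, the ER stress kinase PERK, rose from a mean of 28.5 ± 1.65 to 91.4 ± 12.8 CPM (log2 fold change 1.70, SE 0.139, adjusted p = 6.9e-05, edgeR), while Eif2ak2 (-1.08), Eif2ak4 (-0.70) and Eif2ak1 (-0.35), which respond to double-stranded RNA, amino acid lack and haem lack, were repressed. Of 20 initiation partners 4 were induced and 2 repressed at that time, where 23.3% and 23.5% of all genes were, so the partners as a list did not stand above the background. The kinases of eIF4E moved apart: Mknk1 rose from 28.5 ± 5.52 to 145 ± 4.24 CPM (log2 fold change 2.37, SE 0.164, adjusted p = 3.4e-05, edgeR) and Mknk2 fell from 159 ± 52.8 to 53.4 ± 5.37 CPM (log2 fold change -1.56, SE 0.229, adjusted p = 0.00104, edgeR). Pdcd4, an inhibitor of eIF4A, rose by 1.24 on the log2 scale, and Ppp1r15b, the constitutive cofactor of the eIF2 phosphatase, by 0.53. Cyfip1, which binds eIF4E, fell by 0.92. Mknk1 was the partner already induced at 45 min of tunicamycin (0.87, SE 0.185, adjusted p = 0.0389, edgeR).

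At HS 135 min 0 of the 4 eIF2 kinase genes were induced and 1 was repressed, where 4.75% and 2.64% of all genes were. Of the 4, 1 lay wholly above control and 3 wholly below, where 18.1% and 19.1% of all genes did. At that time 1 partner was induced and 1 repressed. Ppp1r15b gave 0.88 (SE 0.195, adjusted p = 0.0388, edgeR) and Mcts1, an initiation and reinitiation factor, -3.04 (SE 0.729, adjusted p = 0.046, edgeR). Mcts1 fell from 4.64 to 8.94 CPM in control to 0.111 to 1.49 CPM, of which only the lowest library was near the floor of 3 reads. Among 10 tested elongation and termination genes 2 were induced at 405 min of tunicamycin and 0 repressed, where 23.3% and 23.5% of all genes were. They were Eef1e1, a synthetase-complex protein (0.78, SE 0.182, adjusted p = 0.00866), and Eef2k, the kinase that slows elongation by acting on eEF2 (1.11, SE 0.117, adjusted p = 0.000215, edgeR). The 2 mitochondrial initiation factors, Mtif2 and Mtif3, passed in neither direction at any time against control.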

How the data were processed

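Poly(A) mRNA-seq of 18 libraries (6 groups of 3) was used. Alignment to mm9 and counting on RefSeq genes were done by the authors on the DNAnexus platform (the aligner and counter are not given in the sources used here). The authors deposited estimated counts, with 17.7% to 23.2% of low values not whole, and RPKM values. They also deposited a score (RPKM centred and scaled per library) and a signal (RPKM over its root mean square), which were not tested. Libraries were made with more than 1 kit, and which library had which is not given in the sources used here.

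Expected counts were rounded. Each comparison was fitted on its own 3 against 3 libraries with edgeR 4.0.16 in R 4.3.3 (TMM, quasi-likelihood test), with Benjamini-Hochberg adjustment over 12731 genes (1 read or more in all 18 samples), and a gene was called at an adjusted p under 0.05. The SE is the log2 fold change over the square root of F. CPM values are on 1 TMM scale over all 18 libraries, and between-gene levels are the deposited RPKM. DESeq2 1.42.0 was an alternative. GC content came from GENCODE transcripts of the mm9 assembly (96.6% of genes, all 53 members), with a lowess span of 0.3 for the offset. Promoters came from RefSeq. The fit was tested on simulated counts with the same spread setting for every gene and no GC-related axis. That simulation does not show how the fit performs at the spread found between these replicates. Replicates differed by more than sampling noise (chi-square per degree of freedom 16.7 to 932 over 10650 genes).

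Members and gene lists were chosen with earlier results of these data known. In each comparison every called member was named where there were at most 12, and otherwise the 6 largest rises and falls whose groups did not overlap. Another 10 (Eif4ebp1, Eif1, Eif4a1, Eif4a2, Eif2s1, Eif2s2, Eif4e, Eif4g1, Eif4g2 and Eif5) were described in all groups by that rule. Any further member was named after its values were seen. Same-numbered samples deviated together only in Tu 135 min against control (correlations 0.335, 0.314 and 0.284), where the replicate block, like the unblocked fit, called 0 members.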

Additional observations from a re-analysis of the deposited data

Results flagged for a closer look

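Between 2 times of tunicamycin 29 members differed by the direct test of 405 min against 45 min (edgeR, adjusted p under 0.05), 22 higher and 7 lower, and the 12 picked by the naming rule are given here. The log2 differences, 405 min minus 45 min, were 1.59 for Eif1, 1.29 for Eif4ebp1, 1.04 for Eif3g, 0.98 for Eif6, 0.88 for Eif1a and 0.83 for Eif2b3. They were -1.31 for Eif2c1, -0.70 for Eif5a2, -0.62 for Eif4g1, -0.60 for Eif2c4, -0.54 for Eif4ebp2 and -0.52 for Eif5b. No group had the 4 samples that a search for single outlying samples needs.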

How the results depend on the processing

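No alternative reversed the direction of a named member. Of 351 alternative values for 27 gene results, 321 kept their side of the threshold and 30 lost it. DESeq2 size factors gave 10 lower in place of 9 at Tu 405 min, and 23 higher and 6 lower in place of 22 and 7 for Tu 405 min against Tu 45 min (28 of 29 calls shared), and changed no other count of called members. In pairs of higher and lower calls: without the filter on low counts HS 135 min gave 5 lower in place of 2. DESeq2's Wald test gave 1 lower at HS 45 min, 13 lower at HS 135 min, 1 higher and 12 lower at Tu 45 min, 4 lower at Tu 135 min and 3 higher for HS 45 min against Tu 45 min. One fit of all 6 groups gave 1 and 3 at HS 45 min, 3 and 16 at HS 135 min, 1 and 2 at Tu 45 min, 1 lower at Tu 135 min, 7 and 5 in place of 10 and 9 at Tu 405 min, 13 and 2 for Tu 405 min against Tu 45 min, 3 higher for HS 45 min against Tu 45 min, and 2 and 2 for HS 135 min against Tu 135 min. The GC offset gave 1 and 15 at HS 135 min, 1 and 10 at Tu 45 min, 1 lower at Tu 135 min, 16 higher at Tu 405 min and 1 lower for HS 135 min against Tu 135 min. Over all genes, higher then lower, the fit of all 6 groups called 7.27% and 3.3% at HS 45 min and 3.32% and 1.64% at Tu 45 min. It called 5.65% and 4.33% for HS 45 min against Tu 45 min, and 7.84% and 6.07% for HS 135 min against Tu 135 min. DESeq2's Wald test called 10.1% and 7.58% at HS 135 min, and the GC offset 26.6% and 26.0% at Tu 405 min. The cause of the moved counts was not tested.

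The replicate block took the lower calls to 0 at HS 135 min and at Tu 45 min, and the replicate block with the GC offset gave 2 higher at HS 135 min and 3 lower at Tu 45 min. With the block the adjusted p was 0.162 for Eif1 and 0.143 for Eif3f at HS 135 min, and 0.172 for Eif5a at Tu 45 min. Against control, correlations of same-numbered samples were mixed in sign in every group but Tu 135 min. Between HS 45 min and Tu 45 min they were all negative (-0.714, -0.307 and -0.766). In these comparisons a shared number did not mean that samples deviated together.

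Leaving out 1 library at a time gave 0 to 5 higher and 0 to 20 lower at HS 45 min, 0 to 1 higher and 0 to 13 lower at HS 135 min, and 0 to 2 higher and 0 to 12 lower at Tu 45 min. At Tu 405 min it gave 8 to 16 higher and 7 to 16 lower, with the highest counts without control replicate 1. For Tu 405 min against Tu 45 min it gave 20 to 24 higher and 4 to 9 lower. For HS 45 min against Tu 45 min it gave 0 to 11 higher and 0 to 19 lower. The 11 and 19 came without HS 45 min replicate 3, where 26.8% and 28.8% of all genes were called. The 13 lower at HS 135 min came without HS 135 min replicate 1, where 7.32% of all genes were called lower. Lone changes that lost a call are Eif1a without Tu 405 min replicate 1 (adjusted p = 0.0533), Eif2b3 and Eif4ebp2 without Tu 405 min replicate 2 (0.0533 and 0.0577), Eif5a2 without Tu 45 min replicate 2 (adjusted p = 0.055) and Eif2c4 without replicate 2 of either group (0.0638 and 0.068), all for 405 against 45 min. In that comparison Eif3a lost its call in 4 of 6 such fits, and Eif2b1 and Eif4e2 in 2 of 6 each.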
